A study of Mus musculus with 4 samples.

Results

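Cluster 5 of the draining lymph node (LN) held 223 of the 3963 LN cells and of the 14875 cells measured in all. Its members are the cells that the deposited cell table numbers 5 at clustering resolution 0.6, and 104 came from the library labelled ICOS FC and 119 from the library labelled ICOS WT. The mice were of strain C57BL/6 and were either ICOS-deficient, titled ICOS FC, or ICOS WT, and cervical draining nodes were taken 1 day after oxazolone, a hapten that provokes contact hypersensitivity. A further pair of libraries, again 1 labelled ICOS FC and 1 ICOS WT, came from spleen at steady state. All 4 libraries were made from live cells carrying CD4, TCRβ and YFP that were sorted at over 95% purity and are called regulatory T (Treg) cells in the labels. The labels do not say how the deficiency was made, what drives YFP, how many mice gave each library, or their age. Each group was 1 library, so no difference between labels has a replicate check and no test was run. Brackets hold 95% intervals that cover counting error only.

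Interferons are cytokines that warn cells of virus. Type I interferons bind the receptor chains Ifnar1 and Ifnar2, whose JAK kinases phosphorylate STAT proteins, and these join Irf9 in a complex that binds interferon-stimulated response elements in promoters. The genes switched on encode antiviral enzymes and RNA-binding proteins, the ubiquitin-like protein ISG15 and its conjugation enzymes, sensors of viral RNA, and feedback inhibitors. Treg cells hold immune responses in check, and Foxp3 is their defining transcription factor.

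The promoters of the 5 markers with a window, and of Isg15, are shown because the deposited clusters were drawn from expression and did not use sequence. Each line is a RefSeq window on GRCm38.p6, from 250 bases before to 50 bases after the gene start, read 5′ to 3′ on the gene's strand. Capitals mark each match to GAAA, any 2 bases and GAAA again, on either strand, the core letters of an interferon-stimulated response element. Rsad2 is at chr12:26456403-26456702 (minus strand), Ifit3 at chr19:34583279-34583578 (plus), Slfn5 at chr11:82951852-82952151 (plus), Oasl1 at chr5:114922990-114923289 (plus), Cmpk2 at chr12:26468965-26469264 (plus) and Isg15 at chr4:156200769-156201068 (minus).
Rsad2: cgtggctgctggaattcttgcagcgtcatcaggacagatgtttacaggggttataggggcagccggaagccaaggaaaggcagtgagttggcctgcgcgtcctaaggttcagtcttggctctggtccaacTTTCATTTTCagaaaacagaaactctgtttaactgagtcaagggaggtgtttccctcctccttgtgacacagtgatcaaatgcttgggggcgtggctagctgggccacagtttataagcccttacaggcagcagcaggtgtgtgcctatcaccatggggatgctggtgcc
Ifit3: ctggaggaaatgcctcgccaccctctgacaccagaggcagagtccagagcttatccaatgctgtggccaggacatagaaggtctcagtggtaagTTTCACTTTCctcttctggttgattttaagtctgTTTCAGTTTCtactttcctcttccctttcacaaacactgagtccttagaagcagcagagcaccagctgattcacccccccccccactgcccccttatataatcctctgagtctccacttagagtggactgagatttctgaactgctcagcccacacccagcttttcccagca
Slfn5: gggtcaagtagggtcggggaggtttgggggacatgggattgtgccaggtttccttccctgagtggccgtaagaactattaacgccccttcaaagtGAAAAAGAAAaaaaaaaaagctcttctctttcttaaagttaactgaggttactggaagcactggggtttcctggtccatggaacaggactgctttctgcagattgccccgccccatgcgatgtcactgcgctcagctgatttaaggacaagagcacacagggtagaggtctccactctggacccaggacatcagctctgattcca
Oasl1: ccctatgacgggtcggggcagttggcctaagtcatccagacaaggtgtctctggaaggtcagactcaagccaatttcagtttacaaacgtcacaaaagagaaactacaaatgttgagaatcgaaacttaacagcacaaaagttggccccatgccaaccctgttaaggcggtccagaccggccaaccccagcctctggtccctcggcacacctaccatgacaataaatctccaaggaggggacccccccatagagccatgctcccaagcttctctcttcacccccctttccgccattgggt
Cmpk2: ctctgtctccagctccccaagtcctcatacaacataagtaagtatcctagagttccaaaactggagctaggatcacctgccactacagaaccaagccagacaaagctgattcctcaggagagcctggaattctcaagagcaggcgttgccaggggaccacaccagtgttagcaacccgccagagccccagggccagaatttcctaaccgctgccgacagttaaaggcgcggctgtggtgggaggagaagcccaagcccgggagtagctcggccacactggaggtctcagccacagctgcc
Isg15: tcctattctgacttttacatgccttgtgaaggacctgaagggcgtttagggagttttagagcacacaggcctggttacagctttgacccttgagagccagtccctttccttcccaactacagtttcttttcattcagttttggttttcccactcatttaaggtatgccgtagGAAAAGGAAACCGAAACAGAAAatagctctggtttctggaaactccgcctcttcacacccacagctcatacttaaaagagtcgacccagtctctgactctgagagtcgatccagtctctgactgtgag

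The match in Rsad2 began 120 bases before the gene start and in Slfn5 155 bases before it. Ifit3 held matches 156 and 122 bases before its start, and its near copy Ifit3b held the same 2 strings of letters, TTTCACTTTC and TTTCAGTTTC, at 188 and 154 bases. The 3 matches of Isg15 overlapped one another, at 78, 72 and 66 bases. The windows of the markers Oasl1 and Cmpk2 held no match, and Oas2 was not matched to a window. Rsad2 and Cmpk2 lie next to each other on chromosome 12 with their window starts 12263 bases apart. Of the 141 genes that were higher in cluster 5 by the rule of size given with the levels, 116 matched the RefSeq table and 44 of these (37.9%) held the letters in a window. Of the 506 lower genes, 401 matched and 12 (2.99%) held them, beside 222 of the 4653 matched genes compared (4.77%) and 1079 of all 27025 genes with a window (3.99%). The letters were frequent in the interferon-inducible GTPase list, at 10 of 11 matched members, and in the Schlafen, Ifi200 and Phf11 list, at 13 of 20. They were in 1 of 5 matched members of the ISG15 list and 1 of 5 of the PARP list, whose members were mostly higher in cluster 5. They were in 11 of 19 interferon genes, nearly all of which had 0 UMIs there. A match describes the letters and is not a bound site.

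The Treg part of the label was checked against markers. The interferon part was named from the markers themselves and is described with their levels. Levels are unique molecular identifiers (UMIs, each standing for a captured transcript) per 1000000 UMIs (CPM), summed over the cells of a cluster. The Treg markers did not bear out the label for every cell. The 6 Treg markers were Foxp3, Il2ra (the high-affinity IL-2 receptor chain), Ctla4 (which competes with CD28 for its ligands), Ikzf2 (the Ikaros-family factor Helios), Tnfrsf18 (the costimulatory receptor GITR) and Izumo1r (folate receptor 4). Of cluster 5 cells, 31 of 104 labelled FC (29.8% [21.2, 39.6]) and 38 of 119 labelled WT (31.9% [23.7, 41.1]) held 0 or 1 UMI of all 6 together. The same share lay between 0.15% and 4.03% in clusters 0 to 4 of either library, and between 12.1% and 17.2% in clusters 6 and 7. Cluster 6 had a median of 1788 UMIs a cell in the FC-labelled library and 2022 in the WT-labelled one, against 6318 and 6983 in cluster 5. With every cell thinned to 2000 UMIs, none of the 6 markers was seen in 33.7% [24.7, 43.6] of FC-labelled and 40.3% [31.4, 49.7] of WT-labelled cluster 5 cells. The shares were 10.7% and 8.87% in cluster 1. Cluster 7 was nearer, at 19.6% [10.2, 32.4] and 24.2% [14.5, 36.4], with counting intervals that overlapped those of cluster 5. The cells are therefore called cluster 5 and given no lineage name.

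Ctla4 was at 132 CPM in cluster 5 of the library labelled ICOS FC and 67.2 CPM in that of ICOS WT, below every other LN cluster, which ranged from 152 to 1080 CPM and from 134 to 912 CPM. Tnfrsf18 and Ikzf2 were likewise lowest in cluster 5 in both libraries. Il2ra was lowest there only in the WT-labelled library, at 167 CPM. In the FC-labelled library it was at 293 CPM, above cluster 2 (239 CPM) and cluster 7 (270 CPM). Izumo1r was lowest there only in the FC-labelled library, at 274 CPM. In the WT-labelled library it was at 305 CPM, above cluster 6 (290 CPM). Foxp3 was at 50.8 and 56.2 CPM in FC-labelled and WT-labelled cluster 5 cells, higher than in cluster 4 (36.4 and 32.4 CPM) and lower than in cluster 1 (64.5 and 76.6 CPM). A Foxp3 UMI was found in 23.1% [15.4, 32.4] and 20.2% [13.4, 28.5] of cluster 5 cells, against 2.44% and 1.22% of spleen cluster 4, a Foxp3-low cluster with median depths of 4845 and 5492 UMIs. Foxp3 was therefore above that background in cluster 5 as a whole.

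Icos, the gene targeted in the design (chromosome 1, 60977927 to 61000320), was at 95.7 CPM in cluster 5 of the library labelled ICOS FC and 64.7 CPM in that of ICOS WT. Outside cluster 5 it was at 961 and 629 CPM. The transcript was thus higher in the library labelled ICOS-deficient in both sets of cells, with log2 ratios of 0.56 [0.02, 1.12] and 0.61 [0.57, 0.65]. The libraries are called by their labels for this reason, and every direction given between them is a direction between labels. The sources do not give the deleted part, and reads from a 3′ end that lies outside the deletion cannot check it. Cluster 5 and cluster 1 (95.9 and 59.7 CPM) held the lowest Icos levels in both libraries.

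Depth was like that of most other clusters. The 104 FC-labelled cells held 669080 UMIs and the 119 WT-labelled cells 818668, so 3 counts, the limit that a count of 0 allows, correspond to 4.48 and 3.66 CPM. Mitochondrial counts were 3.39% and 4.07% at the median. Phase calls from the deposited scores gave 88 G1, 16 S and 0 G2M cells labelled FC, and 108 G1, 11 S and 0 G2M cells labelled WT, and free RNA also enters such calls. Of the cell barcodes, 30 occurred in both LN libraries, and of cluster 5 cells 1, labelled WT, had a barcode also found in the other LN library. Markers of most other cell types were low in cluster 5. Summed over their lists, B cell genes gave 10.5 and 12.2 CPM with Pax5 and Cd22 at 0, plasmacytoid dendritic cell genes 12 and 11 CPM with Siglech at 0, and myeloid genes 120 and 96.5 CPM with Csf1r and Itgam at 0. Of the myeloid sum, Cst3 made 106 and 84.3 CPM. Erythroid and platelet genes gave 0 UMIs in either library. CD8 and NK genes summed to 55.3 and 79.4 CPM, plasma cell genes to 61.3 and 29.3 CPM, nearly all of it Xbp1 (59.8 and 29.3 CPM), and stromal genes to 76.2 and 79.4 CPM, mostly Pecam1 (68.8 and 79.4 CPM). The conventional CD4 T list was higher than in the remaining cells, at 248 and 365 CPM against 129 and 152 CPM, led by Dapl1 and Tnfsf8, with Il2 and Ifng at 0. Most of that difference was Dapl1, which is also a gene of naive T cells and whose levels are given below.

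The 6 markers were highest in cluster 5 of both libraries, which is how the cluster was named and carries no test. Rsad2, which encodes viperin, an enzyme that makes a chain-terminating nucleotide, had 213 UMIs in 104 FC-labelled cells and 322 in 119 WT-labelled cells, or 318 and 393 CPM. In the remaining LN cells it was at 31.6 and 40.9 CPM, so cluster 5 stood 10.1-fold and 9.61-fold higher. Its highest level elsewhere was in cluster 0, at 60.1 and 81.7 CPM, and its lowest in cluster 4, at 7.57 and 6.91 CPM. Cmpk2, the mitochondrial nucleotide kinase beside Rsad2, was at 133 and 127 CPM in cluster 5 and 14.6 and 20.8 CPM in the remaining cells. Cmpk2 followed the same order of clusters at its upper end, with cluster 0 next after cluster 5 at 23.2 and 41.8 CPM.

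Oasl1, a relative of the oligoadenylate synthetases that limits translation of Irf7 mRNA in mice, was at 112 CPM in FC-labelled and 91.6 CPM in WT-labelled cluster 5 cells, against 10.5 and 10.5 CPM outside. Oas2, an oligoadenylate synthetase that activates RNase L (chromosome 5, 120730333 to 120749853), was at 91.2 and 109 CPM against 9.66 and 14.3 CPM. Oas2 was the marker that set cluster 5 apart least clearly: in the shallow cluster 6 of the FC-labelled library it reached 80.8 CPM, and the counting intervals overlapped. Slfn5, a member of the Schlafen family, was at 1317 and 1408 CPM in cluster 5 against 144 and 206 CPM outside. Ifit3, a tetratricopeptide protein that in human cells strengthens the RNA binding of its relative IFIT1, was at 966 and 934 CPM against 118 and 169 CPM. The counting interval of cluster 5 lay above that of every other cluster for these markers in both libraries, other than Oas2 in the FC-labelled one.

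Most cells of the cluster carried the abundant markers. An Isg15 UMI was found in all 104 FC-labelled and all 119 WT-labelled cells, an Ifit3 UMI in 100 and 115 and a Slfn5 UMI in 104 and 116. The rarer markers were seen in fewer cells, Rsad2 in 74 and 92, Cmpk2 in 60 and 57, Oasl1 in 49 and 51 and Oas2 in 43 and 53. No marker rested on a few cells: the 3 cells with the most UMIs held 9.60% and 6.54% of Ifit3 UMIs, and 13.6% and 9.94% of Rsad2 UMIs. Cluster 5 made up 5.63% of LN cells and held 32.5% of all LN Rsad2 UMIs, 31.6% of Oasl1, 27.6% of Slfn5 and 15.5% of Isg15.

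**Figure D1:**
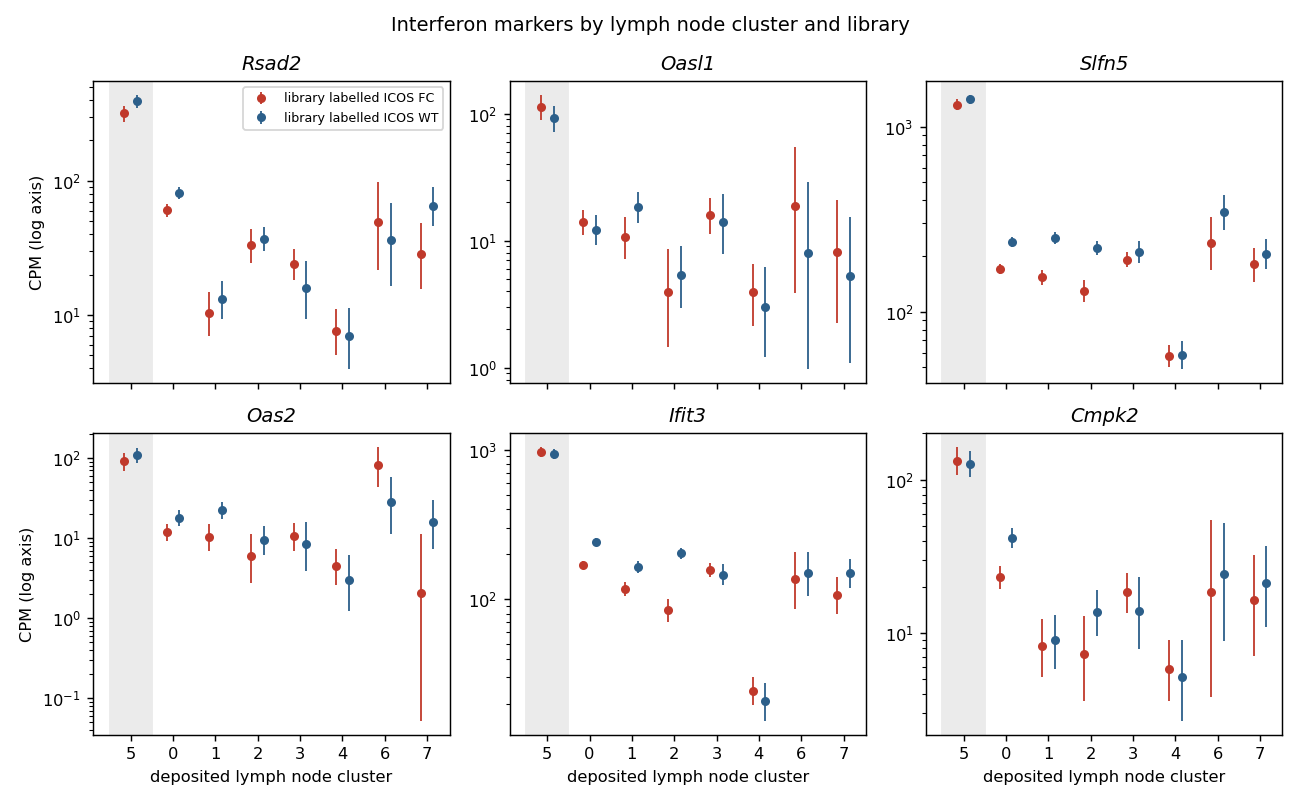
Level of each of the 6 markers (CPM, log axis) in the 8 deposited LN clusters, cluster 5 leftmost on grey, with FC-labelled cells left of WT-labelled ones and bars for 95% counting intervals. Cluster 5 is highest in each panel, and cluster 4 is among the lowest. For Oas2 the interval of FC-labelled cluster 6 overlaps that of cluster 5.

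Beyond the markers, genes counted as higher in cluster 5 when they reached 20 CPM, stood at least 2-fold above the remaining cells in both libraries, and had counting intervals clear of equality, with the mirror of this for lower genes. Of 5794 genes compared, 141 were higher (2.43%) and 506 lower (8.73%). The rule is a description, because the clusters were drawn on these genes. The median log2 ratio of all genes with at least 5 CPM was -0.39 in the FC-labelled and -0.40 in the WT-labelled library, so cluster 5 had most genes lower and a few far higher. With a median-of-ratios factor, every ratio moved by 0.25 and 0.28 and the counts became 219 higher and 334 lower. In counting list members, the minimum is 5 CPM, under which 1.86% of 8974 genes were higher and 7.87% lower.

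The antiviral effectors stood out as a group, with 21 of 34 measured members higher, 0 lower and list medians of 1.67 and 1.37 on the log2 scale. Of the 34 members, 27 had their highest level in cluster 5 in both libraries. Usp18, the protease that removes ISG15 and dampens the type I receptor, was at 454 CPM in FC-labelled and 512 CPM in WT-labelled cluster 5 cells, against 66.2 and 82.2 CPM outside. Ifit1, which binds RNA caps that lack host methylation, was at 1039 and 1022 CPM against 176 and 220 CPM. Mx1, a gene of the dynamin-like GTPase family, was at 117 and 126 CPM against 15.5 and 20.4 CPM. Isg15 was at 2344 and 2179 CPM against 530 and 666 CPM. These members all exceeded the remaining cells by more than 2-fold in each library.

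Other antiviral effectors differed less. Ifi27l2a, an abundant interferon-inducible transcript, was at 4369 CPM in FC-labelled and 4275 CPM in WT-labelled cluster 5 cells, against 4881 and 6275 CPM in the remaining cells. Shisa5 was at 1988 and 1863 CPM against 1608 and 1665 CPM. Bst2, the tetherin that holds budding virions, was at 1188 and 959 CPM against 542 and 614 CPM, which is over 2-fold under the FC label and under 2-fold under the WT label, and its highest level lay in cluster 5 in both libraries. Ifi27l2a was highest in cluster 0, at 7259 and 9337 CPM.

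The enzymes around ISG15 showed 4 of 6 members higher: Isg15 itself, Usp18, the ligase Herc6 at 250 and 321 CPM against 69.1 and 82.7 CPM, and the ligase Trim25. The Schlafen, Ifi200 and Phf11 families had 14 of 18 higher and 0 lower, with Ifi208 at 430 and 469 CPM against 85.1 and 108 CPM. Members of these families and of the Ifit and Oasl families are close copies of each other, and tags may be split among them. Among PARP enzymes, which attach ADP-ribose and include antiviral members, 6 of 8 were higher, with Parp14 at 652 and 586 CPM against 187 and 198 CPM and Parp12 at 61.3 and 86.7 CPM against 12.8 and 14.6 CPM. Of the interferon-inducible GTPases, which attack membranes of intracellular pathogens and respond to interferon gamma in particular, 13 of 18 were higher. Iigp1 was at 735 and 628 CPM against 212 and 193 CPM and Tgtp1 at 100 and 122 CPM against 18.3 and 28.0 CPM. These lists also had no member that was lower by the rule, which asks for both libraries.

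Of 12 measured interferon receptors, JAK kinases and STATs, 1 was higher: Stat2, at 179 CPM in FC-labelled and 178 CPM in WT-labelled cells, against 52.2 and 70.9 CPM. Ifnar1 was at 82.2 and 89.2 CPM against 61.5 and 68.6 CPM and Ifnar2 at 47.8 and 40.3 CPM against 41.1 and 46.6 CPM. Of the interferon regulatory factors, 2 of 9 were lower, Irf4 (5.98 and 6.11 CPM against 54.6 and 43.0 CPM) and the low-level Irf5, and 1 was higher, Irf7, the factor that amplifies type I interferon production, at 359 and 358 CPM against 106 and 119 CPM. Irf9 was at 193 and 175 CPM against 94.2 and 113 CPM. Of the 9 measured feedback inhibitors, Usp18 was the 1 higher member, and Socs1 was at 623 and 423 CPM against 377 and 333 CPM.

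Sensors of foreign nucleic acid, RNA and DNA, were higher in part, with 6 of 13 past the rule. Ifih1 (MDA5) was at 140 CPM in FC-labelled and 164 CPM in WT-labelled cells against 36.7 and 47.7 CPM, Ddx58 (RIG-I) at 209 and 210 CPM against 58.3 and 70.6 CPM, and Zbp1, a sensor of Z-form nucleic acid, at 661 and 651 CPM against 262 and 305 CPM. Transcripts of the interferons themselves were at the limit of detection: of 20 interferon genes, 19 had 0 UMIs in cluster 5, and their sum was 1.49 CPM in the FC-labelled library and 0 CPM in the WT-labelled one. Classical presentation genes were close to other cells, with 0 of 22 MHC class I genes higher, 1 lower (the chaperone Calr) and medians of 0.27 and 0.18. H2-K1 was at 3593 and 3084 CPM against 3640 and 3714 CPM, while H2-T22, a nonclassical molecule, was at 595 and 530 CPM against 240 and 282 CPM.

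Cells were also scored 1 by 1 by the summed UMIs of the antiviral list per 10000 UMIs. The median was 212 in FC-labelled and 194 in WT-labelled cluster 5 cells, against 113 and 135 in the remaining LN cells, and at 2000 UMIs a cell it was 42.5 and 40 against 22 and 27. No cluster 5 cell fell below 85.2. The sum is no sharp boundary, since 595 of 3740 cells outside the cluster reached the cluster 5 median of 205, and 365 of them lay in cluster 0. The sum includes the abundant Ifi27l2a, which was higher in cluster 0 than in cluster 5. The marker Rsad2 went the other way, at 60.1 and 81.7 CPM in cluster 0 against 318 and 393 CPM in cluster 5. Reaching this sum is thus not the same as carrying the markers. In these 595 cells a median of 23 UMIs of the 6 Treg markers was found, and 2.02% had 0 or 1, whereas the 112 cluster 5 cells at the same cut had a median of 6.50 and 22 with 0 or 1. Over all 3740 cells outside the cluster the median was 20 and 2.89% had 0 or 1, close to the values of the 595. In cluster 1, the cells at the cut had medians of 16 (FC-labelled) and 8.5 (WT-labelled). The higher Treg marker UMIs outside cluster 5 were thus not particular to cells that reached this sum.

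**Figure D2:**
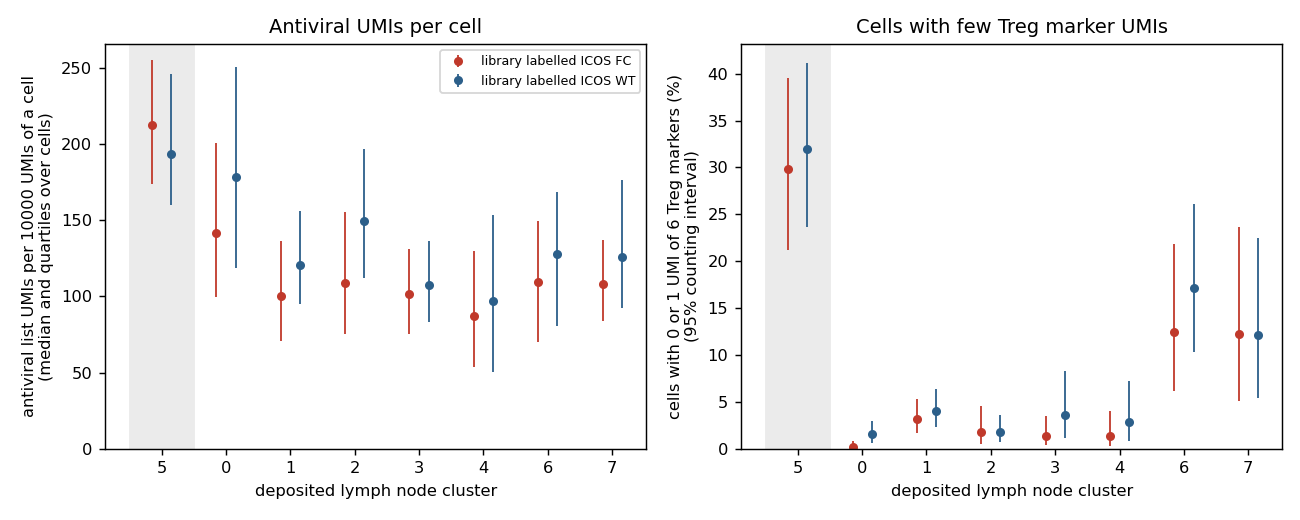
Left, summed UMIs of the antiviral list per 10000 UMIs of a cell, as medians (points) and quartiles (bars) over the cells of each LN cluster and library. Right, percent of cells with 0 or 1 UMI of the 6 Treg markers with 95% counting intervals. Cluster 5, leftmost on grey, has the highest median in both libraries, 212 and 194, and the largest share of cells with few Treg marker UMIs, 29.8% and 31.9%; FC-labelled points stand left of WT-labelled ones.

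Effector Treg genes were low in cluster 5. They summed to 436 CPM in FC-labelled and 409 CPM in WT-labelled cells, against 5411 and 6837 CPM in the remaining cells. Their sum was similarly low in cluster 1, as given below. All 22 measured members of the effector list were lower in both libraries. Gzmb, the cytotoxic protease granzyme B, had 4 UMIs in FC-labelled and 5 UMIs in WT-labelled cluster 5 cells, or 5.98 and 6.11 CPM, against 499 and 1440 CPM outside. Klrg1, an inhibitory receptor of terminally differentiated cells, had 0 UMIs in both libraries against 57.4 and 52.2 CPM. The calcium-binding protein S100a4 was at 7.47 and 22 CPM against 485 and 697 CPM. Tnfrsf9 (4-1BB), a costimulatory receptor induced by activation, was at 14.9 and 6.11 CPM against 363 and 301 CPM. Il10 and Ebi3, a cytokine and a cytokine subunit of suppressive Treg cells, had 0 UMIs in both libraries.

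Cell division genes were low as well, with all 16 measured members lower and Mki67, a marker of cycling nuclei, at 1 UMI in FC-labelled and 0 in WT-labelled cells. Of 16 resting and lymphoid homing genes, 3 were higher and 0 lower by the rule, with medians of 0.59 and 0.44. Id3 went the other way, at 37.4 and 80.6 CPM against 118 and 138 CPM. Lef1, a factor of naive T cells, was at 251 CPM in FC-labelled and 341 CPM in WT-labelled cells, against 129 and 142 CPM in the remaining cells. Ly6c1, a surface protein that interferon also induces, was at 534 and 734 CPM against 112 and 173 CPM, and Dapl1, a gene of naive T cells, at 108 and 225 CPM against 24.2 and 31.8 CPM. The low effector and division genes and the higher Lef1, Ly6c1 and Dapl1 were thus shared by both libraries.

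Without the interferon genes, the cluster lay closest to cluster 1. Each cell was correlated with the mean profiles of the other 7 clusters over 2000 variable genes outside the interferon lists. Cluster 1 was nearest for 183 of 223 cells (82.1% [76.4, 86.9]), which were 78.8% of FC-labelled and 84.9% of WT-labelled cells. Cluster 3 was nearest for 20 cells, cluster 2 for 10, cluster 6 for 6 and cluster 7 for 4, and clusters 0 and 4 for 0. Cells of cluster 1 themselves were returned to it in 85.5% of cases. Cluster 1 had resting genes at 4840 and 4978 CPM in sum, beside 4638 and 4932 CPM in cluster 5, and effector genes at 410 and 485 CPM beside 436 and 409 CPM. These lists stood at 2796 and 2487 CPM, and 10238 and 15040 CPM, in cluster 0. Cluster 1 differed from cluster 5 in the summed Treg identity genes, at 3528 and 3589 CPM against 2677 and 1820 CPM in cluster 5.

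The cells of cluster 5 were then set side by side by their UMIs of the 6 Treg markers, a division chosen after the values were seen and given with no test. It held 69 cells with 0 or 1 UMI (31 labelled FC and 38 labelled WT), 39 cells with 2 to 4 and 115 with 5 or more (57 and 58). Median UMIs were 6999, 6466 and 6529, so the cells with few Treg marker UMIs were not shallower. Of the interferon markers, Rsad2 was at 372 CPM in the 69 cells against 376 CPM in the 115, Ifit3 at 980 against 942 CPM and Cmpk2 at 129 against 131 CPM. Slfn5 was at 1279 against 1429 CPM, Oasl1 at 99.7 against 104 CPM and Oas2 at 114 against 80.0 CPM. The antiviral UMIs per 10000 had a median of 181 in the 69 cells against 222 in the 115, with quartiles of 153 to 218 and 189 to 264, and the antiviral list summed to 18538 against 22021 CPM. Over 34 antiviral genes the median log2 ratio of the 69 cells over the 115 was -0.18, where it was -0.06 over all 8391 genes. Isg15 was at 2093 against 2319 CPM. MHC class I genes summed to 15059 against 18640 CPM and feedback inhibitors to 2351 against 3888 CPM.

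Genes that the division did not use also differed between these cells. Of 8391 genes, 173 were at least 2-fold higher in the 69 cells (2.06%) and 315 lower (3.75%). Of the 10 other Treg identity genes, 8 were lower and 0 higher. Lrrc32 (GARP), which displays latent TGF-beta on Treg cells, had 0 UMIs in the 69 cells against 94.6 CPM in the 115, and Gpr83, a receptor marking Treg cells in mice, 0 UMIs against 93.3 CPM. With 3 counts over the 69 cells as the floor, Lrrc32 was at least 15.2-fold lower. Il2rb, the shared IL-2 and IL-15 receptor chain, was at 16.6 against 331 CPM and Tnfrsf4 (OX40) at 8.31 against 239 CPM. Rgs1, a regulator of chemokine receptor signalling, was at 35.3 against 744 CPM. Foxp3, used in the division itself, had 0 UMIs in the 69 cells.

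Genes higher in the 69 cells included Tcf7, the factor TCF1 of naive and memory T cells, at 424 against 94.6 CPM. Il7r, the receptor for the survival cytokine IL-7, was at 569 against 155 CPM, and Pde3b, a phosphodiesterase, at 91.4 against 8.0 CPM. Dapl1 was at 268 against 84.0 CPM and Cd40lg, the CD40 ligand of helper T cells, at 51.9 against 13.3 CPM. Each of these genes had the same direction within both libraries; Il7r, for example, was at 685 against 121 CPM in FC-labelled cells and 478 against 185 CPM in WT-labelled cells. Outside interferon genes, 66 of the 69 cells were nearest to cluster 1, against 82 of the 115. The conventional CD4 T markers summed to 393 against 225 CPM. Dapl1 is in that list and made 268 and 84.0 CPM of it, so the higher sum in the 69 cells rested on Dapl1. The CD8 and NK markers summed to 116 against 48.0 CPM with Ncr1 and Klrb1c at 0 in the whole cluster. The part of these cell type markers in the result was not tested.

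**Figure D3:**
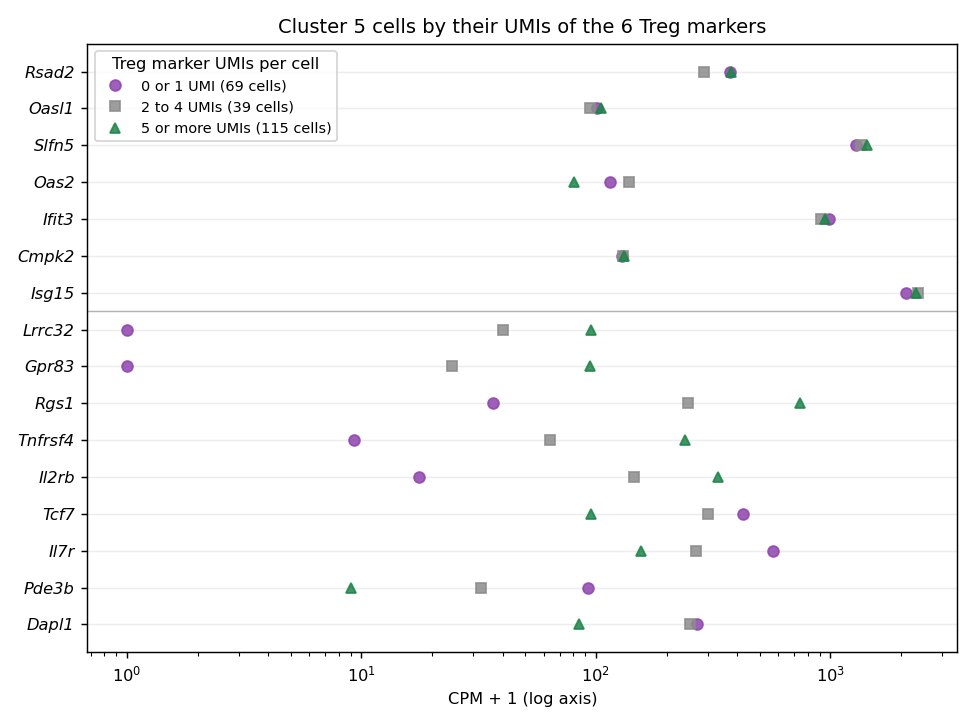
Level (CPM plus 1, log axis) of 7 interferon-stimulated genes, above the grey line, and 9 other genes in cluster 5 cells with 0 or 1, 2 to 4, and 5 or more UMIs of the 6 Treg markers. The interferon-stimulated genes lie closer together across the 3 sets of cells, while Lrrc32 and Gpr83 are at 0 UMIs in the 69 cells and Tcf7, Il7r, Pde3b and Dapl1 are higher there.

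The comparison of the labels within cluster 5 sets the library labelled ICOS FC against that labelled ICOS WT after the same challenge. Cluster 5 took 5.03% [4.13, 6.07] of FC-labelled and 6.27% [5.22, 7.46] of WT-labelled LN cells. The deposited clusters were drawn with interferon-stimulated genes, which differed between the labels outside the cluster, so these shares are a description. When cells were clustered anew with all genes, the counterpart held 4.26% and 6.54% and took in 54.7% of cluster 5 cells. Without the interferon lists it held 4.07% and 5.59% and took in 45.3% of them. New clusterings without Icos gave 2.27% and 4.01%, and leaving out genes that differed by label 8.33% and 11.4%. These took in 50.7% and 95.1% of cluster 5 cells. Of the counterpart's cells, 57.5% came from cluster 5 with all genes and 53.2% without the interferon lists. The same figure was 91.9% without Icos and 54.6% without genes that differed by label. The FC-labelled share was the lower one each time, but shares of such mixed counterparts are not shares of cluster 5 itself. The counting intervals of the labels overlapped for the deposited cluster and without the interferon lists, and did not overlap in the other new clusterings.

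Within the cluster, a gene counted as higher or lower under the FC label at 20 CPM or more, 1.5-fold or more, and a counting interval clear of equality. Of 4915 genes, 153 were higher (3.11%) and 171 lower (3.48%), and the median log2 ratio over genes with at least 5 CPM was -0.03. Among the remaining LN cells, which hold many times more UMIs, 61 (1.1%) and 62 (1.12%) of 5532 genes passed. Intervals clear of equality also arise from counting error alone in some genes, and they leave out the sampling of 104 and 119 cells. With cells thinned to 2000 UMIs, 37 of the 153 and 28 of the 171 genes passed again.

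In cluster 5, antiviral effectors passed the 1.5-fold rule between the labels about as rarely as all genes did. Among 34 antiviral effectors, at a minimum of 5 CPM, 1 was higher and 0 lower, beside 2.52% and 2.87% of the 8166 genes compared. In the remaining LN cells 1 was higher and 2 lower, beside 1.88% and 2.35% of 8716 genes. The list median was 0.053 in cluster 5, within -0.087 and 0.087 over sets of its cells, and -0.26 in the remaining LN cells, where the all-gene median was -0.05. Slfn5 had a ratio of -0.10 [-0.23, 0.03] in cluster 5 and -0.52 [-0.60, -0.45] outside. Ifit3 had 0.05 [-0.11, 0.20] in cluster 5 and -0.53 [-0.61, -0.44] outside, and Cmpk2 0.07 [-0.36, 0.49] and -0.51 [-0.76, -0.26]. Rsad2 was lower in both sets, at -0.31 [-0.56, -0.05] and -0.37 [-0.54, -0.20], and Oas2 and Oasl1 had intervals that spanned equality in cluster 5. Intervals lay above equality for 7 and below it for 1 of 34 in cluster 5, and above it for 2 and below it for 28 of 34 outside, where counts are larger. Summed over the list, the ratio in cluster 5 was 0.08 [0.05, 0.11]. Of the 34 effectors, 17 had a counting interval of the difference between these ratios above 0 and none below it. Cells of both libraries entered cluster 5 by their levels of such genes. The contrast with the remaining cells is therefore a description and carries no test. The pooled ratio outside mixes clusters whose shares differed by label, cluster 2 with 10.7% of FC-labelled and 20.6% of WT-labelled cells and cluster 3 with 14.2% and 7.22%. Ifit3 was lower under the FC label in clusters 0 (169 and 240 CPM), 1 (117 and 163 CPM) and 2 (83.9 and 202 CPM), but not in clusters 3 (157 and 146 CPM) and 4 (24.4 and 20.7 CPM). The summed antiviral list was lower under the FC label in clusters 0 to 4 and 7, at 10171 and 11521 CPM in cluster 3 for example, and not in cluster 6 (12003 and 11632 CPM).

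**Figure D4:**
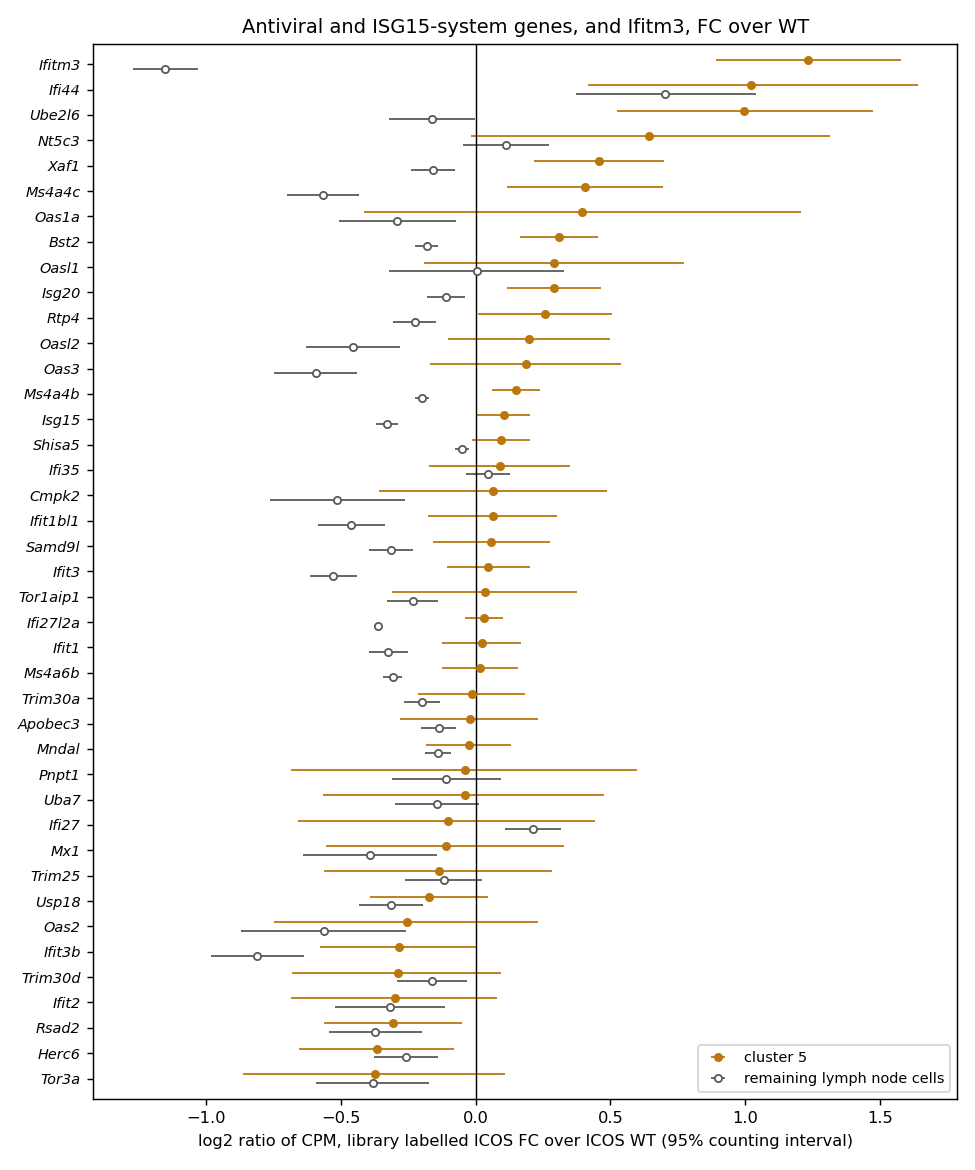
Log2 ratio of CPM, FC-labelled over WT-labelled library, for antiviral effectors, ISG15-system genes and Ifitm3 in cluster 5 (filled) and in the remaining LN cells (open), with 95% counting intervals. Most open points lie left of 0 and most filled points near 0, and Ifitm3, at the top, stands at 1.23 in cluster 5 and -1.15 outside it. Cluster 5 was drawn with such genes, so the contrast is a description.

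The antiviral gene that passed was Ifi44, an interferon-induced cytoplasmic protein, at 94.2 CPM in FC-labelled and 46.4 CPM in WT-labelled cells (1.02 [0.42, 1.64]). It had the same direction outside the cluster (0.70) but stood at -0.41 among cluster 5 cells with a Foxp3 UMI, 24 of each label. Ube2l6, the conjugating enzyme for ISG15, was at 151 and 75.7 CPM (1.00 [0.52, 1.48]) against a ratio of -0.16 outside, and at 0.44 in the cells with a Foxp3 UMI. Trim30c, a tripartite-motif protein of a mouse gene family, was at 44.8 and 20.8 CPM (1.11 [0.21, 2.06]). Ifngr1, the ligand-binding chain of the interferon gamma receptor, was at 276 and 149 CPM (0.89 [0.55, 1.23]) and Stat4 at 109 and 66.0 CPM (0.73 [0.20, 1.26]). The feedback inhibitor Socs3 was at 221 and 142 CPM (0.64 [0.28, 1.01]), while the phosphatase Ptpn6 was lower, at 43.3 and 70.9 CPM (-0.71 [-1.40, -0.04]).

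Ifitm3, which blocks fusion of enveloped viruses with endosomes (chromosome 7, 141009586 to 141010770), was measured in every cluster. It was at 315 CPM in FC-labelled and 134 CPM in WT-labelled cluster 5 cells, 2.35-fold higher under the FC label (1.23 [0.89, 1.58]). In the remaining cells pooled it was at 50.5 and 112 CPM (-1.15 [-1.27, -1.03]), which cluster 0 carried at 64.4 and 234 CPM with 1055 of the WT-labelled UMIs. Clusters 4 (53.8 and 99.7 CPM) and 7 (137 and 241 CPM) had the direction of cluster 0. Cluster 1, the nearest to cluster 5, was at 37.1 and 34.5 CPM, cluster 3 at 36.8 and 23.4 CPM and cluster 6 at 43.5 and 36.2 CPM, so the lower FC-labelled level was not shared by these clusters. The UMIs lay in a minority of cells: 40 of 104 FC-labelled cells (38.5%) and 38 of 119 WT-labelled cells (31.9%) had any, and the 10 cells with most held 60.7% and 57.3% of them. Cells with 8 or more UMIs numbered 12 and 1. The relatives Ifitm1 and Ifitm2 had 0 and 0, and 0 and 3, UMIs in the cluster. The ratio stayed between 1.04 and 1.51 over 8 alternatives.

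Several Treg identity genes were higher in cluster 5 under the FC label, 6 of 16 with 0 lower, beside 2.52% and 2.87% of 8166 genes. The list median was 0.44, and intervals lay above equality for 7 and below it for 0. In the remaining cells pooled the median was 0.26 and 0 of 16 passed the same rule. Intervals there lay above equality for 13 of 16 and below it for 0, so the direction was shared. Il2ra, for example, was at 805 and 484 CPM in cluster 4 and 318 and 350 CPM in cluster 1. Rgs1 was at 589 CPM in FC-labelled and 298 CPM in WT-labelled cells (0.98 [0.75, 1.22]), Il2rb at 266 and 140 CPM (0.92 [0.57, 1.27]) and Il2ra at 293 and 167 CPM (0.81 [0.49, 1.13]). Ctla4 was at 132 and 67.2 CPM (0.97 [0.47, 1.48]) and Tnfrsf4 at 181 and 95.3 CPM (0.92 [0.50, 1.35]), while Foxp3 was at 50.8 and 56.2 CPM (-0.14 [-0.83, 0.53]). Cells with 5 or more Treg marker UMIs were 57 of 104 under the FC label and 58 of 119 under the WT label. In those cells alone the ratios were 0.76 for Rgs1, 0.61 for Il2rb, 0.68 for Il2ra, 0.81 for Ctla4 and 0.75 for Tnfrsf4, smaller in each case. Il2ra and Ctla4 are among the markers by which these cells were kept, so their ratios there depend on that choice.

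Of the 16 resting genes, 1 was higher and 2 were lower, beside 2.52% and 2.87% of 8166 genes. The list median was -0.14, beside -0.03 over all genes. Dapl1 was at 108 CPM in FC-labelled and 225 CPM in WT-labelled cells (-1.06 [-1.48, -0.66]), and at 0.17 in the cells with a Foxp3 UMI. Id3, an inhibitor of E proteins, was at 37.4 and 80.6 CPM (-1.11 [-1.84, -0.43]), and the survival gene Bcl2 was the higher member, at 466 and 307 CPM (0.60 [0.36, 0.85]). Igfbp4, a binding protein of insulin-like growth factors that is high in resting T cells, led the lower genes by UMIs, with 201 and 550, or 300 and 672 CPM (-1.16 [-1.40, -0.93]), and -0.53 outside. Med10, a Mediator subunit, was at 43.3 and 110 CPM (-1.34 [-2.00, -0.72]), close to the -1.16 outside. Each of these genes other than Dapl1 kept its direction over the alternatives.

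The other genes at the ends of the ranking had few UMIs. On the higher side, Ino80b, a chromatin remodeller subunit, was at 65.8 CPM in FC-labelled and 15.9 CPM in WT-labelled cells (2.05 [1.13, 3.07]), Gng12, a G protein subunit, at 71.7 and 24.4 CPM (1.55 [0.77, 2.39]) and Arid5a, an RNA-stabilising protein, at 135 and 63.5 CPM (1.08 [0.57, 1.60]). Plac8 was at 52.3 and 15.9 CPM (1.72 [0.77, 2.76]). Paip2b, a translation inhibitor, had 19 and 3 UMIs and Mtfr1 14 and 2. Their ratios outside cluster 5, other than those of Gng12 (0.46) and Plac8 (0.61), lay between -0.17 and -0.03. On the lower side, Olfr1369-ps1, an olfactory receptor pseudogene, had 6 and 58 UMIs, and the 58 lay in 3 cells. Tox, a factor of thymic development and T cell exhaustion, was at 23.9 and 66.0 CPM (-1.46 [-2.37, -0.64]), Rgs2 at 5.98 and 29.3 CPM, Vps13d at 2 and 23 UMIs and Cd8b1 at 7.47 and 37.9 CPM (-2.34 [-4.06, -0.97]).

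Spleen cluster 6 offered the same marker set in unchallenged mice. Tissue, challenge and library change together between the spleen and the LN and cannot be told apart, so levels are given side by side. Spleen cluster 6 held 117 of 5917 FC-labelled cells (1.98%) and 47 of 4995 WT-labelled cells (0.94%). Rsad2 was at 318 CPM in LN cluster 5 and 172 CPM in spleen cluster 6 under the FC label, and at 393 and 151 CPM under the WT label. Ifit3 was at 966 and 483 CPM under the FC label and 934 and 341 CPM under the WT label, and Slfn5 at 1317 and 650 CPM, and 1408 and 631 CPM. The remaining spleen cells held much less: Rsad2 was at 2.09 and 1.74 CPM there, against 31.6 and 40.9 CPM in the remaining LN cells. Of spleen cluster 6 cells, 13.7% and 8.51% had 0 or 1 Treg marker UMI, against 18.2% and 18.7% of the remaining spleen cells. Without spleen cluster 4, where the share was 78.0% and 76.8%, the remaining spleen cells were at 10.6% and 8.57%, a comparison chosen after seeing the data. Dapl1, high in LN cluster 5, had log2 ratios of 0.34 and -1.46 in spleen cluster 6 over the remaining spleen, against 2.15 and 2.82 in the LN.

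**Figure D5:**
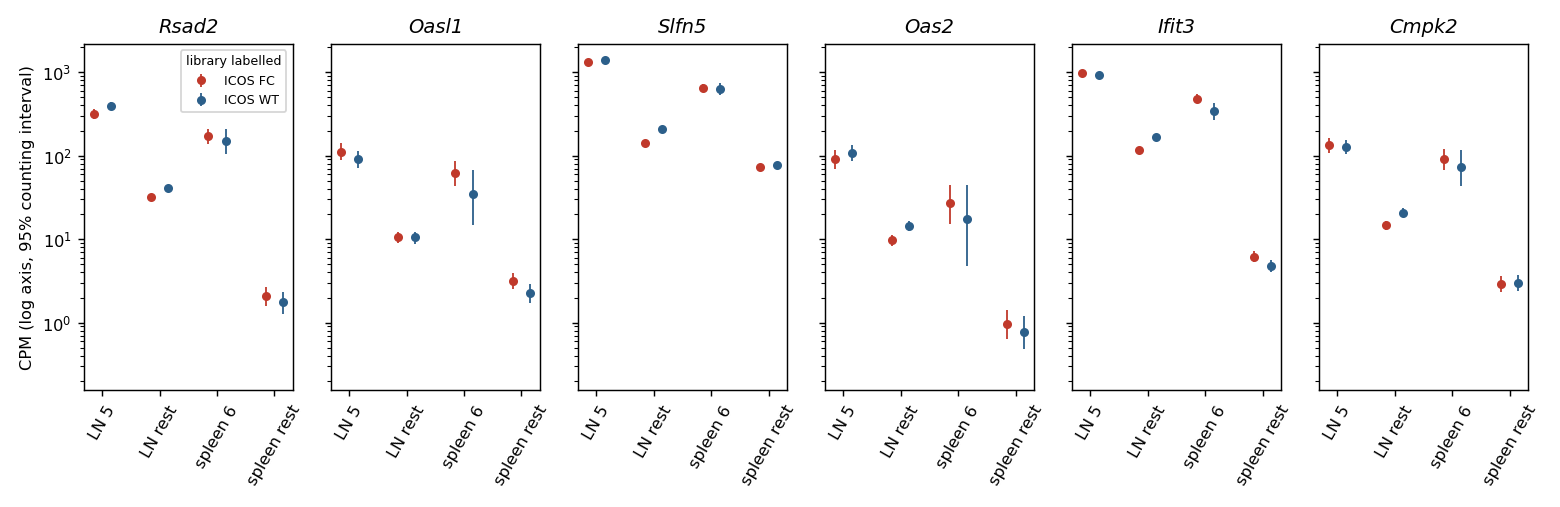
Level of the 6 markers (CPM, log axis, 95% counting intervals) in LN cluster 5, the remaining LN cells, spleen cluster 6 and the remaining spleen cells, with FC-labelled cells left of WT-labelled ones. Each marker is higher in LN cluster 5 than in spleen cluster 6, and the remaining spleen cells are lowest for every marker shown.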

How the data were processed

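Single cells of 4 libraries were read with 10x 3′ chemistry, and the submitters' processing notes name Cell Ranger 4.0.0, R 3.6.1, Seurat 3.0 and GRCm38.p6. The values deposited by the authors are natural log values, ln of 1 plus UMIs per 10000. They were inverted to whole UMIs, and 100% of values came out whole within 0.001, with each cell's total equal to the UMI count that the authors deposited. Mitochondrial percent values, phase scores and cluster numbers are those the authors deposited. The cell table's words Control and KO were taken as ICOS WT and ICOS FC.

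UMIs were summed over cells and scaled to CPM, since cells of 1 library are no replicates. Ratios carry exact conditional Poisson 95% intervals and shares exact Clopper-Pearson ones. PCR and capture make these cover counting error only. List medians used a pseudocount of 0.5 CPM. Named genes were Icos, Foxp3, the 6 markers, members of the interferon lists, up to 4 members of each other list, and the ends of the rankings by the interval bound nearest equality. Further members of the resting, effector and Treg identity lists, and the genes of the division by Treg marker UMIs, were chosen after their values were seen. The members and lists were chosen with earlier results of these data known. No doublet caller was run, and whether doublets were removed before deposit is not stated in the labels. Only the ratios and the rule of size were tested on simulated data, with Poisson counts that hold no spread between cells. Clustering anew used scanpy 1.11.5 with 2000 variable genes, 20 components, 20 neighbours and resolution 0.6. Python 3.11.15, numpy 2.4.6, scipy 1.17.1, pandas 2.3.3 and matplotlib 3.10.9 were used. Results for some genes are not reported here.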

Additional observations from a re-analysis of the deposited data

Results flagged for a closer look

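Ifitm3 had opposite directions in cluster 5 and in the remaining LN cells pooled. The log2 ratio of the library labelled ICOS FC over that labelled ICOS WT was 1.2308 in cluster 5 and -1.1495 in the remaining LN cells. The difference between these ratios was 2.38 [2.03, 2.73] by counting error, and with 1 library for each label the difference was not tested. The pooled direction was that of clusters 0, 2, 4 and 7. In clusters 1, 3 and 6 the FC-labelled level was the higher one, at 37.1 against 34.5 CPM, 36.8 against 23.4 CPM and 43.5 against 36.2 CPM, with overlapping counting intervals.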

How the results depend on the processing

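No paired analysis was possible because each group was 1 library and the cell table carries no replicate numbers. The share of LN cells in the counterpart of cluster 5, which also held other cells, moved in other clusterings. In new clusterings it was 2.27% of FC-labelled and 4.01% of WT-labelled cells without Icos, and 4.07% of FC-labelled cells without the interferon lists. It was 8.33% and 11.4% without the genes that differ between libraries, and 6.92% and 8.91% at the deposited resolutions 0.8 and 1.0. Genes higher and lower under the FC label numbered 84 and 85 at a minimum of 50 CPM. In cells with 0 or 1 Treg marker UMI 98 were higher, and in cells with a Foxp3 UMI 104 were lower. With cells thinned to 2000 UMIs, the rule called 128 genes higher, sharing 37 with the 153 called on all UMIs, and shared 28 of the 171 lower ones.

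The median log2 ratio of the antiviral effectors was 0.087 below 5% mitochondrial counts, -0.012 with a Foxp3 UMI, -0.012 in thinned cells, -0.016 in cells with 5 or more Treg marker UMIs, -0.087 in those with 0 or 1, and -0.26 in the remaining LN cells. Genes higher in cluster 5 than in the remaining cells numbered 227 in the FC library alone, 93 in thinned cells and 219 with a median-of-ratios factor. Lower genes numbered 953 in the FC library alone, 856 in the WT library alone, 221 in thinned cells, 258 at 50 CPM and 334 with the factor. In cells with a Foxp3 UMI, the ratio of Dapl1 was 0.17, of Ifi44 -0.41 and of S100a4 0.17, and S100a4 stood at 0.46 in cells with 5 or more Treg marker UMIs. Pde3b over the remaining LN cells was -0.40 in cluster 5 cells with 5 or more Treg marker UMIs. The cause was not tested for these. Alternatives that divide cells by Treg marker UMIs, the deposited resolutions 0.8 and 1.0 and the factor over the remaining cells were chosen after seeing the data.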
